A study of Homo sapiens with 9 samples.

Results

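The genes described here are 10 members of the NF-kB system, namely the subunits NFKB1, NFKB2, RELA and RELB, the inhibitors NFKBIA, NFKBIE and TNFAIP3, and the target genes TNFAIP2, BIRC3 and ICAM1. They were picked by gene name, with earlier results of these data known, out of 21743 gene names on the array, and all non-control probes that the array design pairs with a RefSeq transcript of a member were used. This gave 11 probes, 1 for each gene and 2 for RELA. RNA was measured on 9 single-colour arrays in 3 groups of 3, labelled OSK-A549-SN, OSK-A549-Colony and parental A549. A549 is an established human lung adenocarcinoma cell line, and all 3 groups share this background. The cells of the other two groups had been transduced with OCT3/4, SOX2 and KLF4 (OSK) by pMXs retroviruses, which insert into the genome of the cells they enter. OSK-A549-Colony cells are those that stayed on the dish in trypsin and were picked from dome-shaped colonies, and OSK-A549-SN cells are those that grew out spindle-shaped at the colony edge and came off first. Both kinds were thus collected by how firmly they adhered, and none of the 9 samples was of cells transduced with EGFP. Parental cells were at passage 98 or 99 and every transduced sample at a later passage, so that passage and transduction cannot be told apart.

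NF-kB factors are dimers of REL-family proteins. In the canonical pathway, inhibitors of the IkB family such as NFKBIA and NFKBIE hold dimers of NFKB1 and RELA in the cytoplasm until a kinase complex, activated by TNF, IL-1 or pathogen receptors, marks the inhibitor for destruction. In the noncanonical pathway a different kinase signal has the NFKB2 precursor processed so that dimers with RELB enter the nucleus. Many targets are parts of the system itself: NFKBIA and TNFAIP3 are made in response to NF-kB and shut it down. An array measures transcripts, so it does not show where the proteins are or whether they are active, and in these bulk samples more cells with a transcript and more transcript per cell cannot be told apart.

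Every array gave usable values. A probe was taken as detected when a share of 0.5 or more of its spots passed the scanner's flags for a positive, significant signal well above background, as 25809 to 29317 probes on an array did. Within groups, Pearson's r between arrays over the 23762 probes detected on all 9 arrays was 0.983 or higher. The epithelial identity of the cells was checked with 8 markers, all of which were detected on all 9 arrays, with none called between any 2 groups. CDH1, which encodes E-cadherin, was, relative to parental A549, 0.996 lower in OSK-A549-Colony (adjusted p = 0.0319), just under 2-fold, and 0.83 lower in OSK-A549-SN (adjusted p = 0.0860), both without overlap. The KRT19 mean of OSK-A549-Colony was 1.18 above parental A549 (adjusted p = 0.0625) and 1.22 above OSK-A549-SN (adjusted p = 0.134), likewise without overlap. Of the endothelial markers, 3 of 6 were detected on no array and CDH5 and VWF on all 9, with a summed intensity of the list of 125.6 on OSK-A549-SN replicate 3 and 53.6 to 75.1 on the other arrays, and of the fibroblast markers 7 of 8 were detected on no array. The T cell marker CD3E was detected on 2 arrays, while the summed intensity of the 7 immune markers with a probe was 1457 to 2481 in parental A549, 1617 to 1696 in OSK-A549-Colony and 1928 to 2646 in OSK-A549-SN. CD68, a lysosomal protein used as a macrophage marker, rose by 1.04 (log2) from parental A549 to OSK-A549-Colony (adjusted p = 0.0272) and was 1.03 above parental A549 in OSK-A549-SN (adjusted p = 0.0577). Of the 6 immune markers tested against parental A549 in OSK-A549-Colony, 3 were higher and 3 lower, with a median of -0.27, and besides CD68 the integrin chain gene ITGAM was 0.81 higher (adjusted p = 0.0300), PTPRC differed by -0.57 (adjusted p = 0.0765) and CD14 by -0.74 (adjusted p = 0.304). The part of these markers in the results below was not tested. Among the transduced factors, KLF4 was at -2.48 to -2.28 on the parental arrays, -0.61 to 1.50 in OSK-A549-Colony and -1.33 to 1.08 in OSK-A549-SN, whereas the SOX2 probe and the POU5F1 (OCT3/4) probe A_23_P59138 overlapped between parental and transduced arrays. The POU5F1 probe A_24_P144601 was at -2.45 to -1.75 on the parental arrays, at 1.48, 0.65 and -1.84 in OSK-A549-Colony and at 1.73, 0.80 and -1.97 in OSK-A549-SN, so that replicate 3 of each transduced group lay in the parental range and the other transduced arrays above it. The position of these probes relative to the coding sequence carried by the viruses is not known here.

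Before the values, the promoters of the members are shown, because NF-kB dimers bind kappaB sites in DNA and several of these genes are known targets of the factor. RefSeq promoter windows of the build GRCh38.p14, each from 250 bases before to 50 bases after an annotated start, were used for 8 of the 10 genes (all but RELB and NFKBIE), which gave 12 windows. They were searched on both strands for the 10-base kappaB consensus and for the 9-base motif GGAAATTCC, a match to which can lie inside a match to the consensus. The consensus was present in 5.91% of all 35116 windows and GGAAATTCC in 0.461%, and 1 or the other in 6.12%. Of the 12 windows of the members, 7 held a match. The sequences below run 5′ to 3′ on the strand of the gene, from 20 bases before the most distant match to the base before the start, with the matches in capitals. They are one window each for the 6 genes with a match.
NFKB1: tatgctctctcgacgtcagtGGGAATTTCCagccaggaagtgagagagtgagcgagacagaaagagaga
NFKB2: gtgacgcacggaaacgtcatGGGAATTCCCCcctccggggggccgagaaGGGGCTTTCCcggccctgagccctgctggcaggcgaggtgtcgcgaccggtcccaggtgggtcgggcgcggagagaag
NFKBIA: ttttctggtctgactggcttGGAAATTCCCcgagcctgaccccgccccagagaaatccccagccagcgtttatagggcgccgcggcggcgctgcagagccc
TNFAIP3: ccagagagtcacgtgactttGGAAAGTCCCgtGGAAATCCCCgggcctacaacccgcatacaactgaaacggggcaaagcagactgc
BIRC3: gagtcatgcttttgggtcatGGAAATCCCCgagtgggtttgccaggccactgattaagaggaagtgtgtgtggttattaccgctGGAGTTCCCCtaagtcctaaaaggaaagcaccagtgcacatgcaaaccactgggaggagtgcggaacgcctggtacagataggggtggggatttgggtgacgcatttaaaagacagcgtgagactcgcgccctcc
ICAM1: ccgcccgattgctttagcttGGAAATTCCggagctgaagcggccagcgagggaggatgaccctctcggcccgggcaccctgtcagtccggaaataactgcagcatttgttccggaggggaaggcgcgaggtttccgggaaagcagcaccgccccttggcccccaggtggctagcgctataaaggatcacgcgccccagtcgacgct

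These stretches lie at chr4:102501290-102501358 (NFKB1, plus strand), chr10:102394451-102394577 (NFKB2, plus strand), chr14:35404750-35404850 (NFKBIA, minus strand), chr6:137867172-137867258 (TNFAIP3, plus strand), chr11:102317265-102317483 (BIRC3, plus strand) and chr19:10270914-10271119 (ICAM1, plus strand). In TNFAIP3 a pair of consensus matches began 67 and 55 bases before the start, only 2 bases apart. In NFKB2 the consensus matched from -107, in overlap with a match from -106, and from -78, and a further start of the same gene had matches from -176 and -21. BIRC3 had them from -199 and -135. NFKB1 and NFKBIA had 1 consensus match each, from -49 and -81, which overlapped a match to GGAAATTCC. ICAM1 matched GGAAATTCC alone, from -186. No window of RELA or TNFAIP2 held either motif, nor did the other windows of NFKB1 and NFKB2. A match is only a description of the letters, since no binding was measured.

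**Figure D1:**
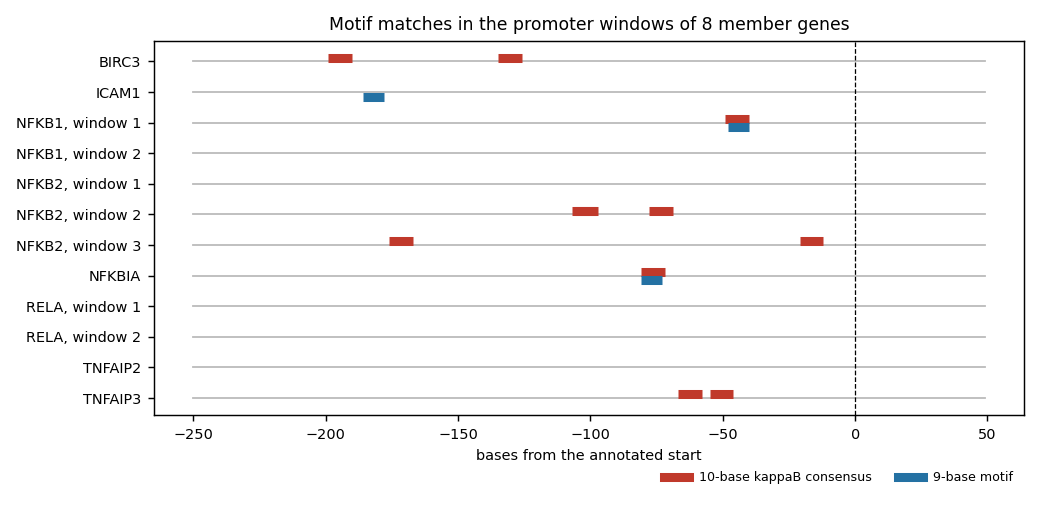
Matches to the 10-base kappaB consensus (red, upper bars) and to the 9-base motif (blue, lower bars) in the 12 promoter windows of 8 member genes; the horizontal axis is the distance in bases from the annotated start (dashed line), and each grey line is 1 window. Matches lay before the start in 7 windows, and the windows of RELA and TNFAIP2 had none.

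The values that follow are log2 intensities minus the 75th percentile of the same array, so a value of 0 is a probe at that percentile and a difference of 1 is a 2-fold change. They compare arrays for 1 probe, never 1 probe with another. Groups were compared pair by pair with limma, and a call needed a fold change over 2 and an adjusted p (Benjamini-Hochberg, over every probe detected on 1 or more of the 6 arrays) under 0.05. The study's methods give 3 independent transduction experiments as the source of the RNA, and no label says whether the parental samples were separate cultures. The p-values measure the spread between these samples, and 3 arrays against 3 cannot reach an exact permutation p below 0.1.

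Of the 10 member probes detected on all 9 arrays, all but that of ICAM1, 9 had the highest mean in OSK-A549-Colony and the lowest in parental A549, as did 22.5% of all probes detected on all arrays, with OSK-A549-SN in the middle. NFKBIA was the exception. The OSK-A549-SN and parental arrays overlapped in 7 of these 9 probes, and the arrays of the transduced groups overlapped in 3. Between OSK-A549-Colony and parental A549, 4 of the 11 probes were called higher, those of NFKB2, RELB, TNFAIP3 and ICAM1, and 0 lower. The call of ICAM1 rests on parental signals that were not well above background, and its measurable difference was at least 1.12-fold, so that 3 of the 10 probes detected on all arrays were called. Of all 30869 probes tested, 3.7% were called, 1.71% higher and 1.99% lower. The median difference of the 11 probes was 0.72, or 0.62 with ICAM1 at its bound, against -0.03 for all probes tested. Between OSK-A549-SN and parental A549, limma called 0 of the 10 member probes tested, where 1.55% of all 32223 probes were called, 0.704% higher and 0.841% lower. At an unadjusted p under 0.05, 2 of these 10 passed, where 21.6% of all probes did, and the members' median difference was 0.23 against 0.08 for all probes. When the transduced groups were set against each other, limma called 0 of 31748 probes, a share of 0%, and so none of the members. At an unadjusted p under 0.05, 8 of the 11 passed, or 7 of the 10 detected on all arrays, all higher in OSK-A549-Colony, where 19.5% of all probes passed in either direction. With the 2-fold limit added, BIRC3 passed, and ICAM1 by its fitted value alone, its bound being at least 1.49-fold, where 2.09% of all probes did in either direction and 0.797% were higher. The median difference of the 11 was 0.53 against -0.06 for all probes. The comparisons share arrays, so they are not separate evidence.

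Of the subunits, NFKB2 and RELB, the partners in the noncanonical dimer, differed most. NFKB2, which encodes the precursor p100, was at -1.75, -1.22 and -0.94 on the parental arrays, at 0.28, 0.09 and 0.23 in OSK-A549-Colony and at -0.37, -0.51 and -1.02 in OSK-A549-SN. All 3 OSK-A549-Colony arrays were thus above every other array, and the OSK-A549-SN arrays overlapped the parental range through replicate 3. NFKB2 rose by 1.50 in OSK-A549-Colony over parental A549 (standard error 0.22, adjusted p = 0.0271). It was 0.83 higher than in OSK-A549-SN (adjusted p = 0.132), and OSK-A549-SN was 0.67 above parental A549 (adjusted p = 0.237).

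RELB, which carries a transactivation domain and binds DNA with the processed form of NFKB2, was at 3.02, 3.52 and 3.77 on the parental arrays, at 4.94, 4.80 and 4.93 in OSK-A549-Colony and at 4.22, 4.04 and 3.69 in OSK-A549-SN. The groups fell in the same order as for NFKB2, with OSK-A549-Colony clear of the rest and the other groups overlapping. RELB rose by 1.45 (standard error 0.21, adjusted p = 0.0255), the smallest adjusted p of the members in this comparison. Against OSK-A549-SN it was 0.91 higher (adjusted p = 0.106), and OSK-A549-SN was 0.54 above parental A549 (adjusted p = 0.275).

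NFKB1, which encodes the p105 precursor of p50, had narrow groups that stood apart. It was at 0.96, 0.92 and 0.90 on the parental arrays, at 1.52, 1.45 and 1.48 in OSK-A549-Colony and at 1.27, 1.17 and 1.06 in OSK-A549-SN, so that no group overlapped another. The difference of 0.56 between OSK-A549-Colony and parental A549 (standard error 0.09, adjusted p = 0.0298) passed the adjusted p but is a fold change of 1.47, under the 2-fold limit. OSK-A549-Colony was 0.32 above OSK-A549-SN (adjusted p = 0.171), and OSK-A549-SN was 0.24 above parental A549 (adjusted p = 0.323).

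RELA, the main transactivating subunit of the canonical dimer, whose promoter windows held no match, did not separate the groups with either probe. The probe A_23_P104689 was at 1.37, 1.42 and 1.89 on the parental arrays, at 1.83, 1.73 and 1.85 in OSK-A549-Colony and at 1.74, 1.82 and 1.60 in OSK-A549-SN. The probe A_33_P3209433 was at 0.58, 0.64 and 1.02, at 0.91, 1.01 and 1.02, and at 0.94, 1.12 and 0.63 in the same groups. Parental replicate 3 was the highest parental array in both. Their differences between OSK-A549-Colony and parental A549 were 0.24 (95% interval -0.17 to 0.66, adjusted p = 0.375) and 0.23 (-0.13 to 0.60, adjusted p = 0.340), so neither interval reached the 2-fold limit of 1. The remaining differences of RELA lay between 0.08 and 0.16.

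Of the 3 inhibitors, TNFAIP3 was called between OSK-A549-Colony and parental A549, and NFKBIA and NFKBIE were not. NFKBIA, which encodes IkB-alpha, was at 4.79, 5.16 and 5.18 on the parental arrays, at 4.79, 4.67 and 4.69 in OSK-A549-Colony and at 4.47, 4.46 and 4.14 in OSK-A549-SN. It was the 1 member that was highest in parental A549, and the groups followed each other without overlap, the parental and OSK-A549-Colony groups by less than 0.01. No difference was called: it was -0.69 in OSK-A549-SN against parental A549 (standard error 0.18, adjusted p = 0.106), -0.33 in OSK-A549-Colony against parental A549 (adjusted p = 0.183) and 0.36 in OSK-A549-Colony against OSK-A549-SN (adjusted p = 0.206). The interval of the first ran from -1.12 to -0.26. In the F test across the 3 groups NFKBIA passed with an adjusted p of 0.0491.

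NFKBIE, which encodes IkB-epsilon, was at 1.87, 2.00 and 2.37 on the parental arrays, at 2.73, 2.65 and 2.71 in OSK-A549-Colony and at 2.31, 2.26 and 1.92 in OSK-A549-SN. The OSK-A549-Colony arrays were above all others, and the other groups overlapped. Its difference from parental A549 was 0.62 (95% interval 0.23 to 1.00, adjusted p = 0.0644), and from OSK-A549-SN 0.53 (adjusted p = 0.139). Between OSK-A549-SN and parental A549 it was 0.08 (adjusted p = 0.820).

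TNFAIP3 encodes A20, a ubiquitin-editing enzyme that ends signalling from the TNF receptor, and its promoter held the adjacent pair of consensus matches shown above. It was at -2.999, -2.63 and -2.88 on the parental arrays, at -1.37, -1.82 and -1.79 in OSK-A549-Colony and at -2.30, -2.62 and -2.94 in OSK-A549-SN. The OSK-A549-Colony arrays were clear of the rest, and the other groups overlapped. TNFAIP3 rose by 1.17 in OSK-A549-Colony over parental A549 (standard error 0.17, adjusted p = 0.0271). It was 0.96 above OSK-A549-SN (adjusted p = 0.128), while OSK-A549-SN differed from parental A549 by 0.21 (adjusted p = 0.588). Its intensities were low, from 29.7 to 96.7, and with the normexp background correction the difference from parental A549 was 0.55 with an adjusted p of 0.0151, under 2-fold and so not called.

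Of the targets, ICAM1, an adhesion molecule that binds leukocyte integrins, was at the edge of detection. It was detected on OSK-A549-Colony replicates 1 and 2, at intensities of 19.3 and 15.2, and was not well above background on the other 7 arrays, at 10.9 in OSK-A549-Colony replicate 3, 4.40 to 5.94 in parental A549 and 5.03 to 5.29 in OSK-A549-SN. ICAM1 was called higher over parental A549 in OSK-A549-Colony (adjusted p = 0.0308), by at least 1.12-fold when each parental array is set at its lowest signal well above background. Over OSK-A549-SN the bound was at least 1.49-fold (adjusted p = 0.105), and no comparison between OSK-A549-SN and parental A549 was made because both were below background. With the normexp correction ICAM1 was not called against parental A549 (adjusted p = 0.133), and this fit too rests on parental signals below background.

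BIRC3, which encodes the ubiquitin ligase cIAP2 of the TNF receptor complex, had the largest difference of the members detected on all arrays but the widest parental spread. It was at 2.10, 2.25 and 0.66 on the parental arrays, at 3.47, 3.29 and 3.41 in OSK-A549-Colony and at 2.66, 1.99 and 2.36 in OSK-A549-SN. Parental replicate 3 stood apart at the low end, and all OSK-A549-Colony arrays were above all others. Without that replicate BIRC3 no longer had the largest difference, as NFKB2 was at 1.69 and RELB at 1.62. The BIRC3 difference from parental A549 was 1.72 (standard error 0.43, adjusted p = 0.0656) with all arrays. Without parental replicate 3 it was 1.22 and called (adjusted p = 0.0213). With all arrays it was called under the normexp correction, the stricter detection filter and 1 fit of all 9 arrays. Over OSK-A549-SN the BIRC3 difference was 1.05 (adjusted p = 0.109), which was called under the normexp correction and the stricter filter. OSK-A549-SN was 0.67 above parental A549 (adjusted p = 0.438).

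TNFAIP2, a gene first described as induced by TNF, did not separate the transduced groups. It was at 6.10, 6.27 and 6.72 on the parental arrays, at 6.83, 7.12 and 7.30 in OSK-A549-Colony and at 6.88, 7.03 and 6.98 in OSK-A549-SN. Both transduced groups lay above every parental array and overlapped each other. The differences from parental A549 were 0.72 for OSK-A549-Colony (95% interval 0.20 to 1.24, adjusted p = 0.0868) and 0.60 for OSK-A549-SN (0.13 to 1.07, adjusted p = 0.155), neither called. The 2 transduced groups differed by 0.12 (-0.23 to 0.47, adjusted p = 0.638), an interval that leaves out a 2-fold difference.

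**Figure D2:**
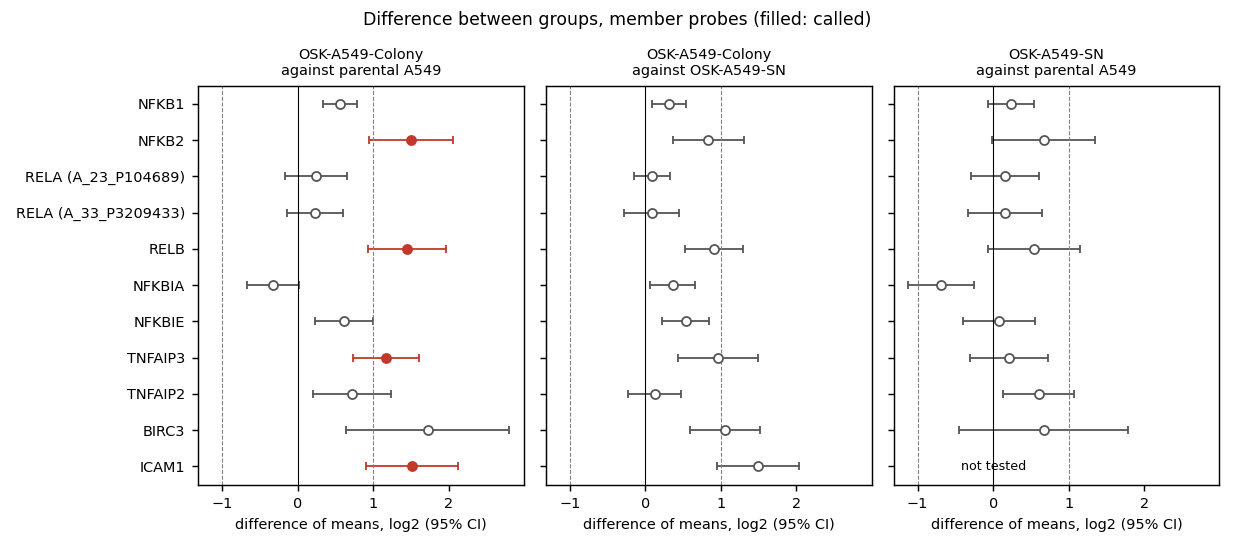
Difference of group means (horizontal axes, log2) with its 95% interval from limma for each member probe in the 3 comparisons; filled red points were called, dashed lines mark a 2-fold change, and the fitted ICAM1 values rest on arrays below background. The 4 called points are in the left panel, and every point of the middle panel is above 0.

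Groups without overlap were also counted. For 8 of the 11 probes every OSK-A549-Colony array was above every parental array, and for 1, NFKBIA, below, where 20.9% of all probes tested were without overlap and higher and 20.7% without overlap and lower. For 8 of the 11 every OSK-A549-Colony array was above every OSK-A549-SN array, against 13.5% of all probes, and for 0 below, against 17.3%. Both counts of 8 include ICAM1, which was tested only through the OSK-A549-Colony arrays, and are 7 of the 10 probes detected on all arrays. OSK-A549-SN was clear of parental A549 in 3 of 10, with NFKB1 and TNFAIP2 higher (16.8% of all probes) and NFKBIA lower (15.2%). In the F test for any difference among the 3 groups, 6 of the 11 probes passed an adjusted p of 0.05, those of ICAM1, RELB, NFKB2, TNFAIP3, NFKB1 and NFKBIA, as did 11.4% of the 33087 probes tested. Without ICAM1, whose values in the other groups were not well above background, 5 of the 10 passed.

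The calls between OSK-A549-Colony and parental A549 depended on single arrays. Without parental replicate 2, or without any 1 of the OSK-A549-Colony replicates, 0 of the 11 probes were called, and the number called among all probes was 1, 141, 0 and 85 without parental replicate 2 and OSK-A549-Colony replicates 1, 2 and 3. In these fits and those without the other parental arrays the differences of NFKB2, RELB and TNFAIP3 stayed between 1.03 and 1.69, and their adjusted p reached 0.112, 0.112 and 0.109. The adjusted p of ICAM1, whose difference is only a bound, reached 0.129. The same 4 were called without parental replicate 1, and BIRC3 joined them without parental replicate 3.

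To set the members in the wider pathway, 133 further genes were grouped by role, each represented by its probe with the highest mean. Between OSK-A549-Colony and parental A549, 118 of them were tested, of which 11 were called higher and 3 lower, where 1.71% and 1.99% of all probes were. Of these 14 genes, 4 were detected on no array of the group in which they were lower, and so were tested only through the other group. The median difference of the 118 genes was 0.18, or 0.16 with genes below background in 1 group at their bound, against -0.03 for all probes. The 5 other subunits and IkB proteins had 0 called, with a median of -0.14. BCL3, a nuclear IkB protein that works with NFKB1 and NFKB2 products, was 0.61 lower in OSK-A549-Colony (adjusted p = 0.0584), without overlap of the groups, whereas NFKBIB, which encodes IkB-beta, was 0.65 higher (adjusted p = 0.0331), also without overlap but under 2-fold. The 10 kinases of the pathway had 0 called and a median of 0.28, with 8 positive and 2 negative differences. Among them MAP3K14 rose by 0.70 from parental A549 to OSK-A549-Colony (adjusted p = 0.0498), without overlap but under 2-fold. Its OSK-A549-Colony mean exceeded that of OSK-A549-SN by 0.79 (adjusted p = 0.122), likewise without overlap. The 21 adaptors tested had 0 called and a median of 0.27.

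Receptors and ligands gave 3 calls. TLR3, an endosomal receptor for double-stranded RNA, was at -3.12, -2.91 and -3.28 on the parental arrays, at -1.46, -1.43 and -1.18 in OSK-A549-Colony and at -1.76, -2.05 and -2.30 in OSK-A549-SN. It rose by 1.75 in OSK-A549-Colony over parental A549 (adjusted p = 0.0148). TNFRSF12A, the receptor for TWEAK and an activator of the noncanonical pathway, rose by 1.22 (adjusted p = 0.0155). TNFSF10, which encodes the death ligand TRAIL, was at -2.64, -1.96 and -1.90 in parental A549 and fell by 1.72 in OSK-A549-Colony (adjusted p = 0.0281) and by 1.62 in OSK-A549-SN (adjusted p = 0.0419). The receptor CD40 was 1.06 lower in OSK-A549-Colony but not called (adjusted p = 0.0576).

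Among the targets of the pathway, 9 of the 44 tested were called higher and 2 lower in the OSK-A549-Colony arrays (1.71% and 1.99% of all probes), 3 of the 9 and 1 of the 2 being the genes detected on no array of the lower group. The targets had a median of 0.47 over parental A549, or 0.43 with such genes at their bound. CCL2, a chemokine for monocytes, was at 2.75, 3.17 and 2.96 on the parental arrays, at 5.44, 5.44 and 5.36 in OSK-A549-Colony and at 4.63, 4.16 and 3.80 in OSK-A549-SN, and rose by 2.45 (adjusted p = 0.0126). CXCL8 and CXCL2, chemokines for neutrophils, rose by 2.25 and 1.24 (adjusted p = 0.0308 and 0.0207). TNFRSF9, a costimulatory receptor, was not well above background in parental A549 and rose by at least 4.04-fold (adjusted p = 0.0126). IL6, a cytokine that signals through STAT3, and PTX3, a pattern recognition protein, were likewise below background in parental A549 and rose by at least 2.39-fold (adjusted p = 0.0153) and at least 2.36-fold (adjusted p = 0.0126). The urokinase gene PLAU rose by 1.82, the IL-15 receptor chain IL15RA by 1.33 and the cytokine IL32 by 1.31 (adjusted p = 0.0308, 0.0187 and 0.0442).

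The 2 called decreases among the targets were GADD45B, a stress-response gene, which fell by 1.21 (adjusted p = 0.0221), and SAA2, an acute phase protein, which was detected on no OSK-A549-Colony array and fell at least 2.92-fold (adjusted p = 0.0434). SAA2 is nearly identical to SAA1, whose probe went the other way without being called, at -5.19, -4.12 and -3.52 on the parental arrays, the first pair not well above background, and at -3.28, -2.77 and -2.88 in OSK-A549-Colony (adjusted p = 0.117). Of the 17 brakes of the pathway tested 0 were called, and ZFAND5, which encodes a protein with an A20-type zinc finger, was 0.64 lower with an adjusted p of 0.0346 but under 2-fold.

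**Figure D3:**
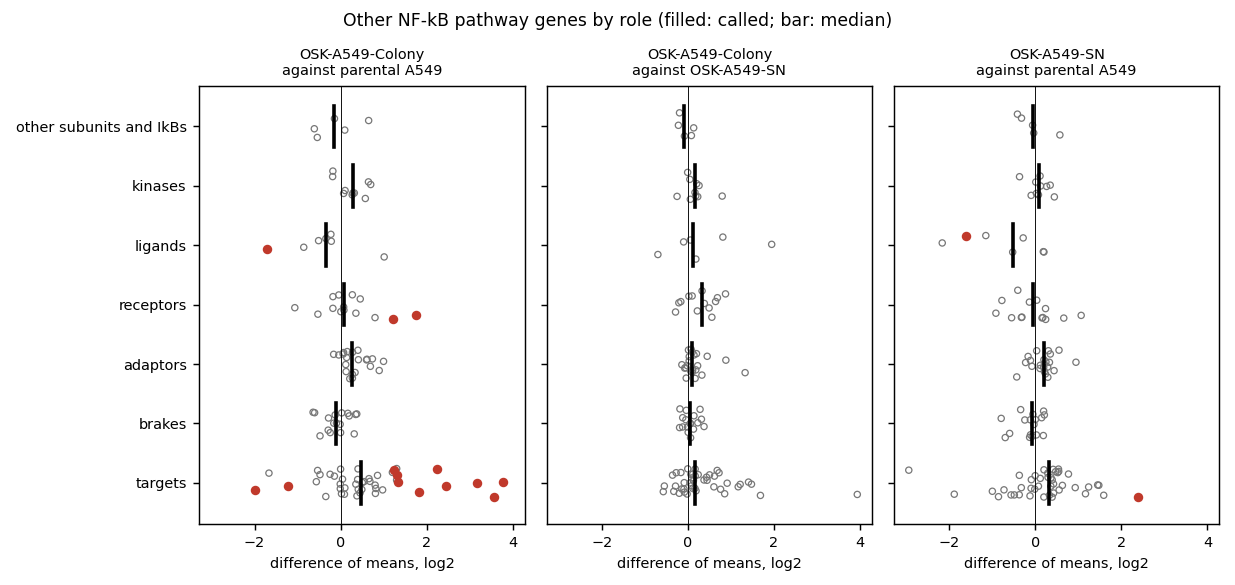
Difference of group means (horizontal axes, log2) of the tested pathway genes other than the members, by role, in the 3 comparisons; each point is 1 gene, filled red where called, and the black bar is the median of the role, with fitted values for genes below background in 1 group. Of the 14 called genes in the left panel, 11 are targets, 9 of them to the right of 0.

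With the transduced groups set against each other, limma called 0 of the 116 pathway genes tested, and 7 passed an unadjusted p under 0.05 with the same fold, all higher in OSK-A549-Colony, where 0.797% of all probes were higher by this rule and 2.09% passed in either direction. Of these 7 genes, IL6, PTX3 and LTB were detected on no OSK-A549-SN array and were tested only through OSK-A549-Colony, which leaves 4 detected on all 6 arrays. Of the genes detected on all 6 arrays the largest differences were in CXCL8 (1.48), TNFRSF9 (1.41), TRAF1 (1.33), CCL2 (1.21) and CCL20 (1.17). TRAF1, an adaptor that binds BIRC3 protein at TNF receptors, had an adjusted p of 0.0958. IL6 and PTX3, detected throughout OSK-A549-Colony but on no OSK-A549-SN array, were at least 3.20-fold (adjusted p = 0.0930) and at least 2.97-fold higher (adjusted p = 0.102). The IL6 value was the smallest adjusted p of all probes in this comparison, but it rests on OSK-A549-SN signals that were not well above background. At the low end were EBI3 (-0.55), GADD45B (-0.36), C3 (-0.33), SAA1 (-0.29) and CD40 (-0.29), none called.

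Between OSK-A549-SN and parental A549, 118 pathway genes were tested, of which TNFRSF9 was called higher, by at least 1.52-fold (adjusted p = 0.0241), and TNFSF10 lower, where 0.704% of all probes were called higher and 0.841% lower, so that the pathway was near the share of all probes. Their median difference was 0.11 against 0.08 for all probes. Among genes detected on all 6 arrays, PLAU (1.45), CCL2 (1.24), IL15RA (1.17), TLR3 (1.07) and EBI3 (0.93) had the largest positive differences and were not called. The most negative after TNFSF10 were CFB (-0.997), TLR1 (-0.92), GADD45B (-0.85) and PPM1B (-0.79), of which PPM1B, a phosphatase that acts on the IkB kinase, had an adjusted p of 0.0443 but was under 2-fold. TNC and TNFSF13B were detected on all OSK-A549-SN arrays and on no parental array. TNC was at least 1.26-fold higher (adjusted p = 0.191). The TNFSF13B mean was 1.13-fold higher with parental arrays at their bound (adjusted p = 0.586), but the groups overlapped. Its parental replicate 3, at -3.77, was above the OSK-A549-SN arrays at -3.87, -3.99 and -3.95. SAA2 was at least 3.10-fold lower in OSK-A549-SN (adjusted p = 0.0602), and none of these genes was called.

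The genes whose pattern over the 9 arrays was nearest to a member were found, for the 9 members detected on all arrays (not ICAM1, and for RELA with the probe A_23_P104689), by the root mean square difference of log2 values, each centred on its own mean, among 18634 probes with a gene name detected on all arrays. NFKB2 and RELB had the same 2 nearest genes, TPM1, an actin-binding tropomyosin (0.16 and 0.15), and IL32 (0.17 and 0.17), against a spread of the members themselves of 0.67 and 0.64 around their means. TNFAIP3 was nearest to the immediate early factor EGR1 (0.11), the growth factor HBEGF (0.14) and CXCL2 (0.14), and BIRC3 to the EGFR ligand EREG (0.21), EEA1 (0.22) and ZNF569 (0.23). The nearest genes of NFKB1 were RAB9BP1, GFPT1 and HCG18, those of NFKBIE were SMAD7, C11orf68 and PLEC, and those of TNFAIP2 were SERPINH1, GPC1 and STMN3. NFKBIA was nearest to LZTS3, CCDC149 and APBB3, and RELA to TPRN, P4HB and ZNF213. These are likenesses over the same 9 arrays, given without a test.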

How the data were processed

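RNA of 9 samples in 3 groups of 3 was measured on Agilent single-colour human arrays (SuperPrint G3). The authors deposited the intensity of each spot from Feature Extraction 11.5.1.1, corrected for background and not scaled between arrays, and a table of log2 values, which matched the values of this report, after a shift of 1 constant on each array, in 100% of probes (tolerance 0.001).

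From the intensity, log2 was taken, control spots and outlier-flagged spots (357 to 484 per array) were dropped, replicate spots were averaged to 50599 probes, and each array was scaled by subtracting its 75th percentile (217.5 to 270.6 as intensity). No spot was saturated, and the number of arrays limits the precision. RefSeq accessions, matched without versions, named 30275 probes. limma 3.58.1 in R 4.3.3 was run for each pair of groups on its 6 arrays, and the F test on all 9. The fits were tested on simulated data.

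A bound ("at least") replaces each array of a group below background by its lowest signal well above background, or by the probe's own signal where that is higher. The genes named by rule are all members and each pathway gene called in a comparison. The rule adds the 5 highest and 5 lowest pathway genes detected on all 6 arrays. It also adds pathway genes detected on all arrays of 1 group and none of the other. For each member detected on all arrays, the 3 nearest genes are named. Single markers, transduced factors and the pathway genes NFKBIB, MAP3K14 and LTB, which the rule does not cover, were named after their values were seen. The members, lists and motifs were chosen with earlier results of these data known. Alternatives were normexp background correction (offset 50, on median spot brightness), quantile normalization, a percentile over probes detected on all arrays, no detection filter or a stricter one, a block for the slide or for the replicate number, 1 fit of all 9 arrays, unadjusted p, the deposited log2 table, adjustment over only the probes called between parental A549 and OSK-A549-Colony, any detected probe of a gene, and leaving out each array.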

Additional observations from a re-analysis of the deposited data

How the results depend on the processing

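All 32 differences of the member probes were recomputed under 14 to 16 alternatives, 499 values in all, of which 463 kept their direction and side of the threshold, 24 lost the call, 9 gained it and 3 changed sign. Direction could not change under the detection filters, the unadjusted p, the replicate block or 1 fit of all 9 arrays, as the means stay. The deposited table differs from the values used here only by 1 constant on each array. For the RELA probe A_33_P3209433, OSK-A549-Colony minus OSK-A549-SN was 0.0820 with all arrays and -0.0529 with the slide as a block, and leaving out each array gave -0.0529 (without OSK-A549-SN replicate 3, the 1 array of slide 2) to 0.194. For NFKBIE, OSK-A549-SN minus parental A549 was 0.0827, and leaving out each array gave -0.0228 (without parental A549 replicate 1) to 0.229.

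Between OSK-A549-Colony and parental A549, the 4 member probes called became 2 without a detection filter (NFKB2 and RELB), which tests more probes, and 0 with the replicate block, and leaving out each array gave 0 to 5. The 14 pathway genes became 6 with normexp and 0 with the replicate block, and leaving out each array gave 0 to 18. In the comparison of the transduced groups, 0 member probes became 1 with normexp (BIRC3), 1 with the stricter filter (BIRC3), 2 at an unadjusted p (ICAM1 and BIRC3) and 1 when adjusted over the probes called against parental A549 (ICAM1), a list that rests on the OSK-A549-Colony arrays too. The 0 pathway genes became 1 with normexp, 5 with the stricter filter, 1 with all 9 arrays in 1 fit and 7 at an unadjusted p, and leaving out each array gave 0 for members and pathway genes. Between OSK-A549-SN and parental A549, the member count was 0 under each of the 16 alternatives run for it. The 2 pathway genes became 7 with the stricter filter, 1 with the slide as a block and 0 with the replicate block. They became 8 with all 9 arrays in 1 fit and 10 at an unadjusted p, and leaving out each array gave 0 to 1. The 6 members past the F test became 1 with the replicate block (ICAM1), and leaving out each array gave 0 to 8. Except where a clause above names it, the cause was not tested.

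The replicate numbers were checked as pairs over the probes detected on all arrays. Deviations of arrays with the same number correlated at 0.24, 0.07 and 0.14 for the 2 transduced groups, where each array correlated best with its own number, at -0.01, -0.05 and -0.02 between OSK-A549-Colony and parental A549, and at 0.15, -0.20 and -0.01 between OSK-A549-SN and parental A549. No label says that a number marks a shared transduction, but OSK-A549-Colony and OSK-A549-SN samples of the same number have the same passage label, and the levels of KLF4, SOX2 and both POU5F1 probes ranked the numbers in the same order in both groups (for A_24_P144601 of POU5F1 1.48 and 1.73, 0.65 and 0.80, and -1.84 and -1.97 in replicates 1, 2 and 3). The study's methods collect OSK-A549-SN cells from the trypsin supernatant of dishes in which the colonies stay behind. Because 1 of the 3 correlations was below 0.1, the comparison was made without the block, although this limit is no test of pairing. Its p-values thus treat samples that may be pairs as unpaired, and the labels do not settle whether they are pairs. With the replicate block the adjusted p of the 11 members between the transduced groups was 0.224 to 0.768, and 0 were called. All arrays of OSK-A549-Colony and parental A549 were on slide 1, so the slide could not be a block there, and the ICAM1 probe was not tested under the stricter filter. A probe near background, such as that of ICAM1, gives only a bound.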
